A study of Homo sapiens with 32 samples.

Results

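The measurements described here set 2 kinds of control array against each other: control arrays with a scrambled siRNA and control arrays with the solvent DMSO. They were chosen by their labels, as control 1 to 4 of each line in the HDAC2 siRNA subset and control 1 to 4 of each line in the SAHA subset, and make up 16 of the 32 arrays of the series. The groups were HepG2 with scrambled siRNA, HepG2 with DMSO, Huh7 with scrambled siRNA and Huh7 with DMSO, with 4 arrays in each. HepG2 is an established hepatoblastoma line and Huh7 an established hepatocellular carcinoma line. The other 16 arrays carried an siRNA against HDAC2 or SAHA (vorinostat, an inhibitor of histone deacetylases), and are quoted below as levels only. Total RNA was labelled with biotin and read on one-colour Illumina bead arrays, and 12973 genes were tested.

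Transfection and subset cannot be told apart in this comparison. Every scrambled siRNA array lay in the one subset and every DMSO array in the other, so a difference between them also holds whatever else set the subsets apart, such as time in culture, passage, harvest or array run. No untreated arrays and no arrays with transfection reagent alone are among the samples used here. The time of treatment, the transfection reagent, the siRNA sequence and the DMSO amount are not stated in the labels read here. The labels are silent on whether a group's 4 arrays stem from 4 cultures, and the p-values therefore measure the spread between arrays, which may be technical. Fewer cells of one state and less RNA per cell also cannot be told apart in bulk RNA.

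A scrambled siRNA is a short double-stranded RNA with no intended target, given so that a targeting siRNA has a control that went through the same transfection. Short RNA duplexes enter the RNA interference machinery, and double-stranded RNA can also be bound by sensors such as IFIH1 (MDA5) and Toll-like receptors, which act through the transcription factors IRF3 and NF-kB to raise interferons, interferon-stimulated genes and chemokines. Nucleic acid carried by transfection reagents commonly passes through endosomes and lysosomes. DMSO is the usual solvent for small molecules such as SAHA.

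Differences are given as mean normalized log2 signal with scrambled siRNA minus that with DMSO, ± the standard error (SE) of the limma fit, over 4 arrays against 4. A gene was called at a Benjamini-Hochberg adjusted p under 0.05 over all 12973 genes. Of the 12 hepatocyte marker genes, ALB, TTR, TF, APOA1, APOB and SERPINA1 among them, 10 were detected on all 4 arrays in HepG2 with scrambled siRNA, 12 in HepG2 with DMSO, 12 in Huh7 with scrambled siRNA and 11 in Huh7 with DMSO. The summed signal of these markers was 17.2 to 17.3 on the log2 scale in HepG2 with scrambled siRNA, against 17.7 to 17.8 with DMSO, and 16.5 to 16.7 in Huh7 with scrambled siRNA, against 16.9 to 16.9 with DMSO. The share of probes detected at a detection p under 0.05 was 49.94% with scrambled siRNA and 50.86% with DMSO in HepG2 (exact permutation test, two-sided p = 0.0571). In Huh7 it was 52.05% with scrambled siRNA and 52.06% with DMSO (exact permutation test, two-sided p = 1). The smallest p that 4 arrays against 4 allow is 0.0286.

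The scrambled siRNA and DMSO controls differed widely. In HepG2, 5844 genes were called (45%), 2983 of them higher (23%) and 2861 lower (22.1%) with scrambled siRNA. In Huh7, 5704 genes were called (44%), 2969 of them higher (22.9%) and 2735 lower (21.1%). When arrays were brought to a common median instead of being quantile-normalized, the fit gave 2203 higher and 3208 lower genes in HepG2 and 2045 higher and 3200 lower genes in Huh7, so the balance of directions depends on the scaling. At least 2-fold differences were fewer, with 597 genes higher (4.6%) and 566 lower (4.36%) in HepG2, and 427 higher (3.29%) and 650 lower (5.01%) in Huh7. Over all genes the median absolute difference was 0.304 in HepG2 and 0.297 in Huh7. Arrays of one group correlated at 0.989 to 0.995, and scrambled siRNA arrays correlated with DMSO arrays of their line at 0.956 to 0.965.

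The lines shared a part of these differences. In both lines 890 genes were higher (6.86%) and 797 lower (6.14%) with scrambled siRNA, while 1332 genes were called in opposite directions. Of the 1332, 651 were higher in Huh7 and lower in HepG2 (5.02% of all genes), and 681 were the reverse (5.25%). The genes higher in both lines were 29.8% of those higher in HepG2, where 22.9% of all genes were higher in Huh7. They were 30.0% of those higher in Huh7, where 23% of all genes were higher in HepG2. The genes lower in both were 27.9% of those lower in HepG2 and 29.1% of those lower in Huh7. Of all genes, 21.1% were lower in Huh7 and 22.1% in HepG2. With each array scaled to one median, 447 genes were higher in both lines. At least 2-fold in each line, 45 genes were higher (0.347%), 70 were lower (0.54%) and 77 went in opposite directions (0.594%). Across the 12973 genes the differences of the lines had a Pearson r of 0.057 and a Spearman rho of 0.048, given as a description, since genes are not independent replicates. The difference itself, HepG2 minus Huh7, passed the test for 5960 genes (45.9%), among them 567 of the 1687 genes that went the same way in both lines.

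**Figure D1:**
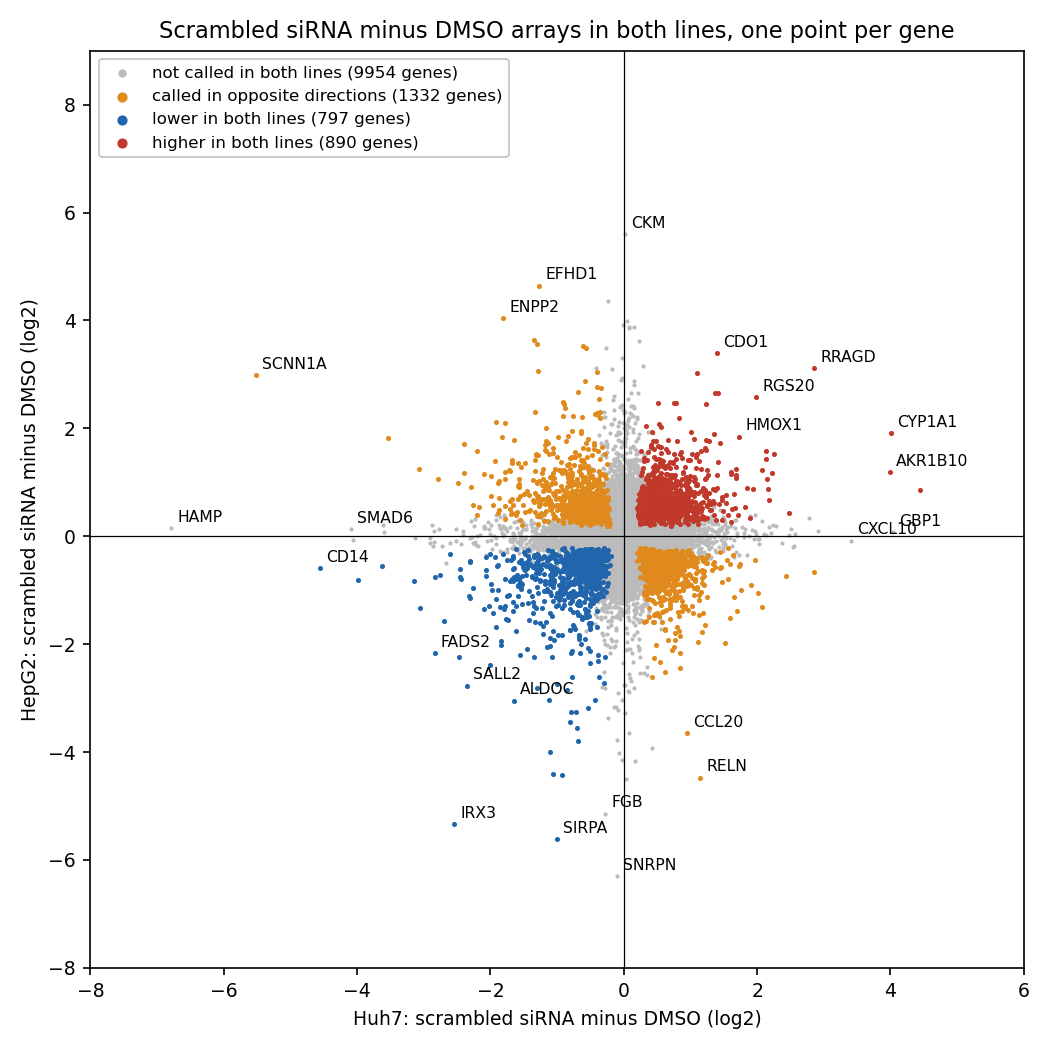
Difference between scrambled siRNA and DMSO arrays for each of the 12973 genes tested, in HepG2 on the vertical axis and in Huh7 on the horizontal axis (log2 units, means of 4 arrays against 4). Red and blue points are the 890 genes higher and the 797 genes lower in both lines, orange points the 1332 called in opposite directions, and grey points all others. RRAGD and CYP1A1 lie far to the upper right, IRX3 far to the lower left, and HAMP, GBP1, SNRPN and CKM lie along an axis, far from 0 in 1 line only.

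Genes higher with scrambled siRNA in both lines were led by RRAGD, a Rag GTPase that signals amino acid supply to mTORC1 at the lysosome. Its log2 signal was 8.26, 8.34, 7.97 and 8.06 with scrambled siRNA, against 5.05, 4.77, 5.36 and 4.98 with DMSO in HepG2. In Huh7 RRAGD had 8.90, 8.17, 8.67 and 8.78 with scrambled siRNA, against 6.08, 5.71, 5.08 and 6.22 with DMSO. No DMSO array reached the lowest scrambled siRNA array of its line. The difference was 3.12 ± 0.18 in HepG2 and 2.86 ± 0.18 in Huh7, and the gene was detected on none of the 4 HepG2 DMSO arrays, which puts it at least 6.76-fold higher there. RGS20, a regulator of G-protein signalling, had 7.77, 7.87, 7.70 and 7.84 with scrambled siRNA, against 5.12, 5.03, 5.39 and 5.30 with DMSO in HepG2, and was at least 5.26-fold higher there. In Huh7 it had 7.16, 7.35, 7.66 and 7.88 with scrambled siRNA, against 5.75, 5.85, 5.32 and 5.19 with DMSO.

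CYP1A1, the cytochrome P450 induced through the aryl hydrocarbon receptor, stood at 8.62, 8.82, 8.97 and 8.45 with scrambled siRNA, against 6.71, 6.48, 6.94 and 7.11 with DMSO in HepG2. Its levels in Huh7 were 10.79, 10.89, 10.78 and 11.02 with scrambled siRNA, against 7.06, 6.85, 6.87 and 6.69 with DMSO. The rise was thus 1.91 ± 0.18 in HepG2 and 4.00 ± 0.18 in Huh7, and the gap between the lines was itself past the test (-2.10). HMOX1, heme oxygenase and a target of NRF2, had 10.46, 10.73, 10.68 and 10.43 with scrambled siRNA, against 8.55, 8.60, 8.82 and 8.92 with DMSO in HepG2. Huh7 showed 9.57, 9.14, 9.62 and 9.65 with scrambled siRNA, against 7.74, 7.94, 7.70 and 7.68 with DMSO for HMOX1, with replicate 2 of the scrambled siRNA arrays the lowest. SLC30A1, which exports zinc from cells and responds to it, had 10.10, 10.22, 10.05 and 10.11 with scrambled siRNA, against 8.72, 8.48, 8.52 and 8.66 with DMSO in HepG2. For Huh7 the SLC30A1 values were 9.67, 9.65, 9.52 and 9.51 with scrambled siRNA, against 7.42, 7.46, 7.30 and 7.13 with DMSO. In each of these 3 genes the scrambled siRNA and DMSO arrays of a line did not overlap.

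Other genes that rose in both lines were ANXA1, a phospholipid-binding annexin (1.59 ± 0.14 in HepG2, where it was at least 1.90-fold higher than undetected DMSO arrays, and 2.13 ± 0.14 in Huh7), and TOM1L2, an adaptor of endosomal sorting (1.74 ± 0.13 in HepG2 and 1.45 ± 0.13 in Huh7). TOM1L2 had 3 detected probes, of which 1 was not called in HepG2 and 2 were not called in Huh7, so its rise in Huh7 rests on its brightest probe. In HepG2 the probes ran from 0.43 to 1.74. BIK, a pro-apoptotic BH3 protein, was undetected on the DMSO arrays of both lines and at least 1.96-fold higher in HepG2 and at least 3.23-fold higher in Huh7. MYL9, a myosin light chain of contractile cells, rose by 2.66 in HepG2 and 1.41 in Huh7 by its brightest probe. Its 2 detected probes ran from 0.72 to 2.66 in HepG2 and from 1.18 to 1.41 in Huh7. CDO1, cysteine dioxygenase, rose by 3.40 in HepG2 (at least 8.93-fold) and 1.40 in Huh7. RENBP, an epimerase of amino sugars, rose by 2.65 in HepG2 and 1.38 in Huh7. CREBRF, a regulator of CREB3, differed by nearly the same amount in both, 1.37 in HepG2 and 1.41 in Huh7. ABHD5, the coactivator of the lipase ATGL, rose by 1.76 in HepG2 and 1.27 in Huh7.

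MFSD1, a transporter of the lysosomal membrane, had 9.82, 10.15, 9.79 and 10.21 with scrambled siRNA, against 8.77, 8.83, 8.60 and 8.80 with DMSO in HepG2. In Huh7 MFSD1 had 10.20, 9.74, 9.86 and 9.96 with scrambled siRNA, against 8.13, 8.41, 8.20 and 8.28 with DMSO, again without overlap. RefSeq promoters were at hand for 9 of the 14 genes named here as higher in both lines, RRAGD and HMOX1 not among them, and that of MFSD1 is shown because the CLEAR core, the element TCACGTGA bound by the lysosomal factors TFEB and TFE3, lies in it, 16 bases before the start. The stretch is the 250 bases before the start on the plus strand of GRCh38.p14, chr3:158801804-158802053, with the match in capitals.
MFSD1: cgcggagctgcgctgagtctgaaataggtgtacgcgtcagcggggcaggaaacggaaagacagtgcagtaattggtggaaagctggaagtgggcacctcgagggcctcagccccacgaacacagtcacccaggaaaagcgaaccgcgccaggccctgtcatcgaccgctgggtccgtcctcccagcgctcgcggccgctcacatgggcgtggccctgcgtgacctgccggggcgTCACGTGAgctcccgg
Of 27305 RefSeq promoters searched over the same 250 bases on both strands, 0.89% held this palindrome. Of the 9 promoters at hand for genes named as higher in both lines, only 1, that of MFSD1, held it.

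Both the 14 genes named as higher and the 14 named as lower in both lines separated their 4 scrambled siRNA arrays from their 4 DMSO arrays in each line (41.8% of all genes did so in HepG2 and 41.7% in Huh7) and they were ranked by these same differences. The HDAC2 siRNA arrays share both transfection and subset with the scrambled siRNA arrays, so values on them and on the SAHA arrays do not tell these apart. All 8 arrays of the siRNA subset, scrambled and HDAC2 siRNA, lay above all 8 arrays of the SAHA subset for 7 of the 14 higher genes in HepG2 and 7 in Huh7. HMOX1, MYL9, ABHD5 and MFSD1 did so in both lines. RRAGD did so in Huh7 but not in HepG2, where SAHA arrays had a mean of 8.32, next to 8.47 with HDAC2 siRNA. CYP1A1 averaged 10.43 on the HepG2 SAHA arrays, above the scrambled siRNA arrays. Over all genes, 28.3% of those called higher in HepG2 and 26.5% in Huh7 were separated in this way, and of those higher by at least 2-fold 265 of 597 in HepG2 and 223 of 427 in Huh7. On the Huh7 arrays with HDAC2 siRNA, RGS20 averaged 5.43, against 7.51 with scrambled siRNA and 5.53 with DMSO. TOM1L2 averaged 6.44 there, against 8.46 with scrambled siRNA and 7.01 with DMSO. For the other genes named as higher, the HDAC2 siRNA mean in Huh7 lay above the DMSO mean.

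**Figure D2:**
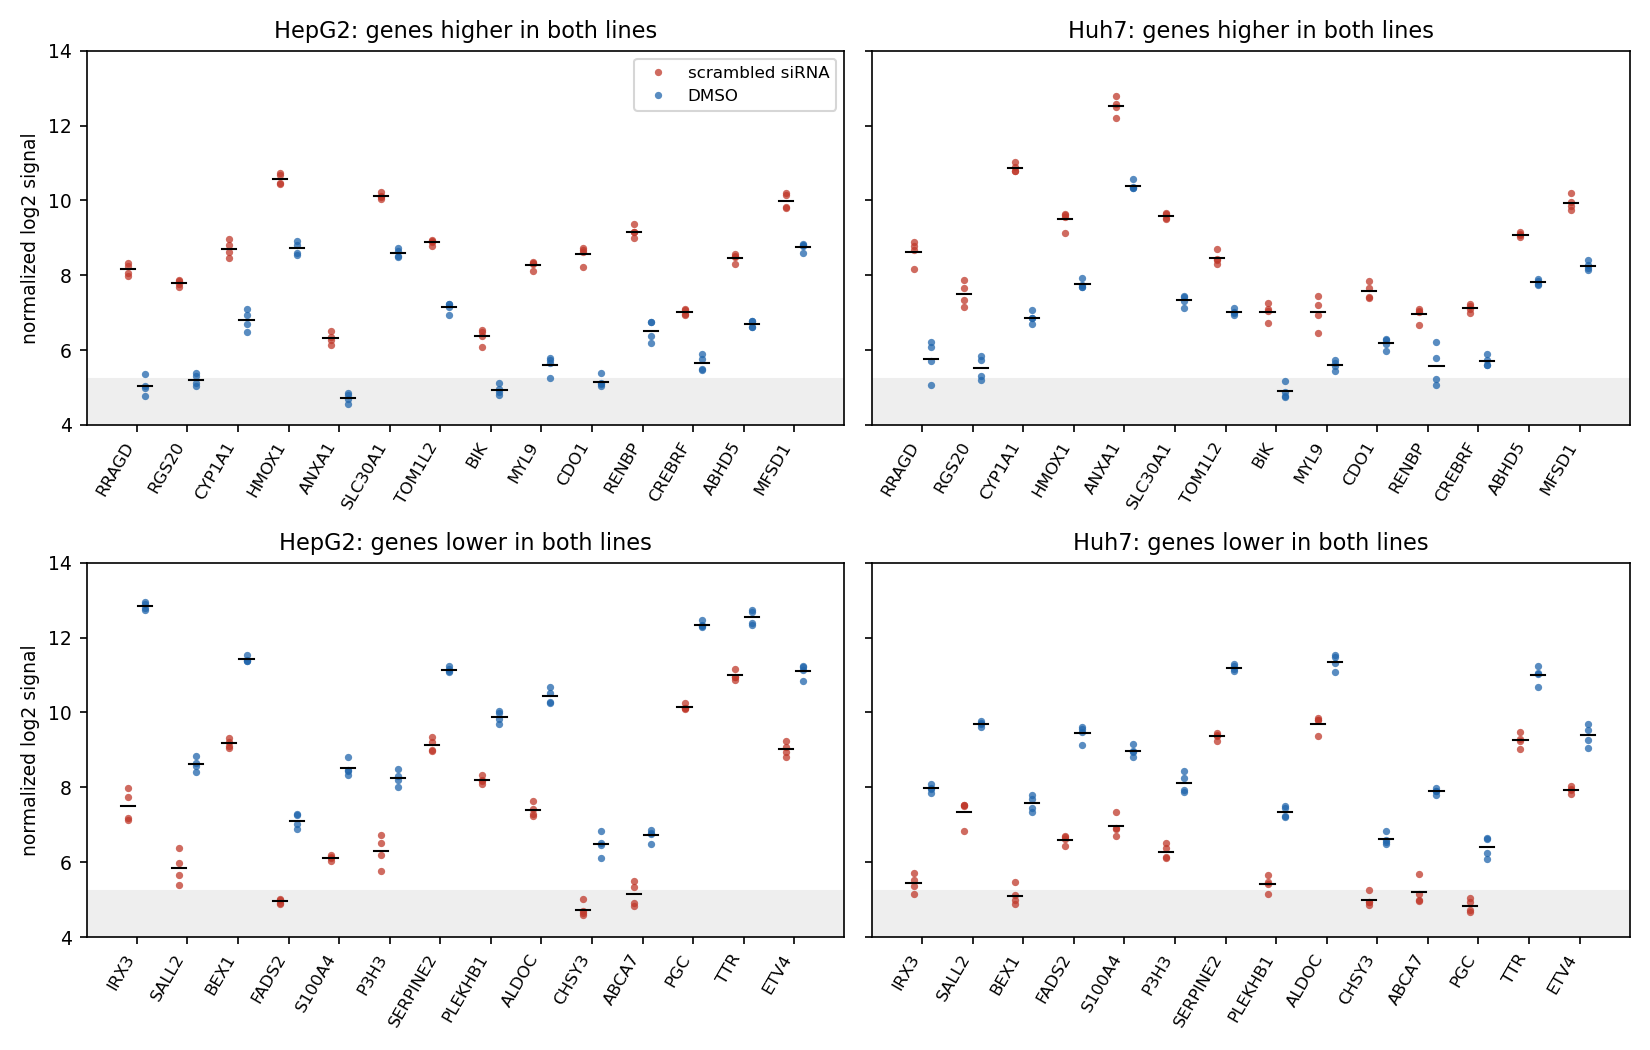
Normalized log2 signal on each control array for the 14 genes named as higher (upper panels) and the 14 named as lower (lower panels) in both lines, with HepG2 on the left and Huh7 on the right. Red points are the 4 scrambled siRNA arrays, blue points the 4 DMSO arrays, black bars their means, and the grey band marks signals below 5.22, the lowest detected on any array. Red and blue points of a gene do not overlap in any panel.

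Genes lower with scrambled siRNA in both lines were led by IRX3, a homeobox transcription factor. It had 7.19, 7.12, 7.98 and 7.74 with scrambled siRNA, against 12.73, 12.91, 12.95 and 12.80 with DMSO in HepG2. Huh7 had 5.14, 5.37, 5.71 and 5.52 with scrambled siRNA, against 7.86, 7.96, 7.98 and 8.10 with DMSO for IRX3. SALL2, a zinc-finger factor, showed 6.37, 5.66, 5.97 and 5.39 with scrambled siRNA, against 8.58, 8.42, 8.84 and 8.64 with DMSO in HepG2, and 6.82, 7.53, 7.49 and 7.54 with scrambled siRNA, against 9.71, 9.62, 9.69 and 9.76 with DMSO in Huh7. BEX1, a small adaptor protein known from neurons, was at 9.33, 9.22, 9.11 and 9.04 with scrambled siRNA, against 11.39, 11.54, 11.37 and 11.37 with DMSO in HepG2. Its Huh7 values were 4.87, 5.46, 4.99 and 5.11 with scrambled siRNA, against 7.69, 7.45, 7.35 and 7.80 with DMSO, and it was detected on 1 of the 4 scrambled siRNA arrays there. All 3 genes fell in every scrambled siRNA array relative to every DMSO array of the line.

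FADS2, a fatty acid desaturase, was undetected on all 4 scrambled siRNA arrays of HepG2 and at least 3.17-fold lower there, with 4.89, 5.02, 4.92 and 4.98 with scrambled siRNA, against 7.02, 7.25, 7.29 and 6.89 with DMSO. Huh7 had 6.69, 6.43, 6.67 and 6.63 with scrambled siRNA, against 9.47, 9.13, 9.56 and 9.61 with DMSO for this gene. TTR, transthyretin, a plasma carrier that hepatocytes secrete, had 11.16, 10.88, 10.96 and 10.96 with scrambled siRNA, against 12.35, 12.40, 12.68 and 12.75 with DMSO in HepG2. In Huh7 TTR stood at 9.49, 9.30, 9.24 and 9.03 with scrambled siRNA, against 11.23, 10.68, 11.05 and 11.03 with DMSO. SERPINE2, a secreted protease inhibitor, fell by similar amounts, -2.01 ± 0.13 in HepG2 and -1.84 ± 0.13 in Huh7. ALDOC, an aldolase of glycolysis, fell more in HepG2, with -3.04 ± 0.15 against -1.65 ± 0.15 in Huh7. ETV4, an ETS factor downstream of growth factor signals, differed by -2.10 ± 0.18 in HepG2 and -1.46 ± 0.18 in Huh7.

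The other named falls were those of S100A4, a calcium-binding protein (-2.39 in HepG2 and -2.01 in Huh7), P3H3, a collagen prolyl hydroxylase (-1.95 in HepG2 and -1.84 in Huh7), and PLEKHB1, a pleckstrin-homology protein (-1.69 in HepG2 and -1.92 in Huh7). ABCA7, a lipid transporter, differed by -1.57 in HepG2 and -2.69 in Huh7, and was detected on 1 of 4 scrambled siRNA arrays in each line, so its level there was near background. CHSY3, a chondroitin synthase, was undetected with scrambled siRNA in both lines and at least 2.04-fold lower in HepG2 and at least 2.40-fold lower in Huh7. PGC, pepsinogen C, differed by -2.21 in HepG2 and was at least 2.08-fold lower in Huh7, where it was undetected with scrambled siRNA. For 13 of the 14 lower genes in HepG2, all but CHSY3, and for 9 of the 14 in Huh7 the 8 arrays of the siRNA subset lay below all 8 arrays of the SAHA subset. Over all genes, 26.2% of those called lower in HepG2 and 24.2% in Huh7 did so, and of those lower by at least 2-fold 326 of 566 in HepG2 and 243 of 650 in Huh7.

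Gene lists were read against all tested genes, whose median difference was -0.00426 in HepG2 and 0.0253 in Huh7, and of which 23% rose and 22.1% fell in HepG2 and 22.9% rose and 21.1% fell in Huh7. NRF2 is the transcription factor that raises antioxidant and detoxifying enzymes. Of its 25 tested targets, 14 rose and 3 fell in HepG2 (median 0.431), and 20 rose and 3 fell in Huh7 (median 0.469), with 13 higher in both lines. AKR1C2, an aldo-keto reductase, differed by 1.59 ± 0.08 in HepG2 and 1.16 ± 0.08 in Huh7. AKR1B10, another of that family, had 11.77, 12.12, 11.90 and 11.71 with scrambled siRNA, against 10.90, 10.60, 10.64 and 10.60 with DMSO in HepG2. Huh7 had 13.02, 12.51, 12.68 and 12.97 with scrambled siRNA, against 8.65, 8.88, 8.96 and 8.74 with DMSO for AKR1B10. With HDAC2 siRNA AKR1B10 averaged 10.42 in HepG2, below the DMSO mean of 10.68, and 11.53 in Huh7. With SAHA it averaged 12.60 in HepG2 and 4.83 in Huh7. OSGIN1, a growth inhibitor induced by oxidative stress, rose by 0.43 ± 0.15 in HepG2, where scaling arrays to one median ends the call (limma, adjusted p = 0.0687), and by 2.48 ± 0.15 in Huh7. Under that scaling 10 NRF2 targets were higher in HepG2 and 11 in Huh7, and both medians stayed above 0.

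Lysosomal and autophagy genes numbered 38, of which 19 rose and 5 fell in HepG2 (median 0.299) and 13 rose and 11 fell in Huh7 (median 0.0305, -0.127 with each array scaled to one median). NPC2, which carries cholesterol out of lysosomes, differed by 1.17 ± 0.09 in HepG2 and 0.19 ± 0.09 in Huh7, where it was not called (adjusted p = 0.0795). LAMP2, a lysosomal membrane protein, went the other way, with -0.73 ± 0.12 in HepG2, where 1 of its 3 detected probes was not called, and -1.52 ± 0.12 in Huh7. The list of endocytosis and membrane trafficking genes had 9 higher and 2 lower of 28 in HepG2, and 13 higher and 6 lower in Huh7. With each array scaled to one median those counts were 6 and 5 in HepG2 and 7 and 7 in Huh7. Among metal-responsive genes, the metallothionein MT1E had a difference of -0.19 ± 0.11 in HepG2, which was not called, and rose in Huh7 by 2.56 ± 0.11. MT1M was undetected with DMSO in HepG2 and at least 6.54-fold higher there with scrambled siRNA, while it was detected on 1 array of each Huh7 group.

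Of 47 tested secreted and metabolic genes of the hepatocyte, 23 fell and 8 rose in HepG2 (median -0.341), and 25 fell and 3 rose in Huh7 (median -0.519). Of the 47, 14 fell in both lines and none rose in both, and 4 went in opposite directions. TF, transferrin, stood at 14.82, 14.70, 14.63 and 14.67 with scrambled siRNA, against 15.22, 15.21, 15.26 and 15.14 with DMSO in HepG2, and 13.09, 13.34, 13.15 and 13.13 with scrambled siRNA, against 14.76, 14.79, 14.68 and 14.66 with DMSO in Huh7. FGG, a fibrinogen chain, had -2.73 ± 0.14 in HepG2, and in Huh7 averaged 12.04 ± 0.38 with scrambled siRNA and 13.05 ± 0.09 with DMSO (SD, n = 4 each). The other chains differed between the lines, with FGA at -3.17 ± 0.08 and FGB at -5.14 ± 0.24 in HepG2, against -0.14 ± 0.08 and -0.28 ± 0.24 in Huh7, where neither was called. These are values of the brightest probe. In HepG2 the 3 detected probes of FGA ran from -4.63 to -0.77 and the 2 of FGG from -4.70 to -2.73. Of 27 acute phase and complement genes 12 fell and 4 rose in HepG2, and 13 fell and 3 rose in Huh7. FGL1, a secreted fibrinogen-like protein, fell by 1.82 in HepG2 and by 1.21 in Huh7.

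Hepatocyte transcription factors moved less evenly. Of 25 tested, 9 fell and 4 rose in HepG2, and 10 fell and 3 rose in Huh7. NR0B2 (SHP), the bile acid-induced repressor, fell in both lines, by 0.89 in HepG2 and 1.52 in Huh7. CEBPA, which drives many hepatocyte genes, went in opposite directions. It had 13.07, 13.16, 13.23 and 13.22 with scrambled siRNA, against 11.72, 11.85, 11.77 and 11.90 with DMSO in HepG2, and 11.56, 11.49, 11.50 and 11.36 with scrambled siRNA, against 13.20, 12.83, 13.12 and 13.13 with DMSO in Huh7. FOXA1, a pioneer factor of liver and other endoderm, did likewise, with 0.68 ± 0.09 in HepG2 and -1.24 ± 0.09 in Huh7.

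**Figure D3:**
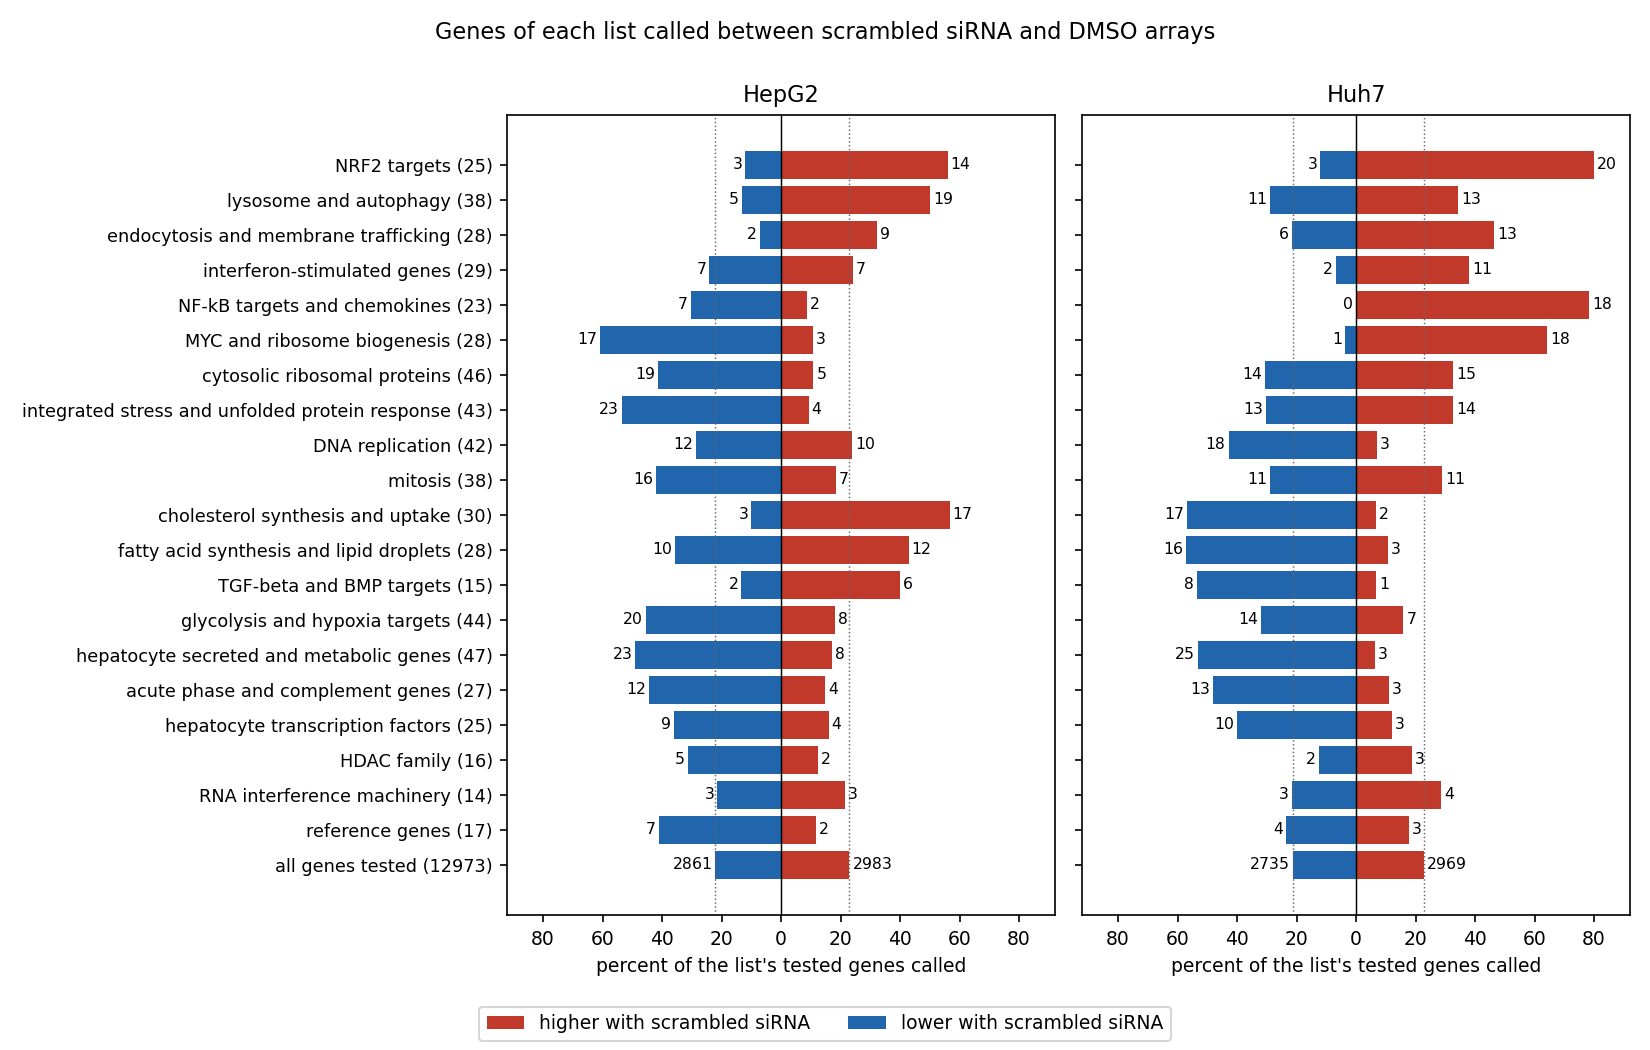
Percent of each list's tested genes called higher (red, to the right) or lower (blue, to the left) with scrambled siRNA than with DMSO, for HepG2 (left panel) and Huh7 (right panel). Numbers beside bars are genes, numbers in brackets are genes tested, and dotted lines repeat the shares of all 12973 genes. NRF2 targets have the longer bar on the right in both panels and hepatocyte genes on the left in both, while NF-kB targets, MYC and ribosome biogenesis genes and cholesterol genes have their longer bar on opposite sides in the panels.

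Beside CYP1A1, AKR1B10 and RRAGD, the large rises in Huh7 included GBP1, CXCL10, KYNU and UBD. GBP1, an interferon-inducible GTPase, had 10.38, 10.09, 10.38 and 10.28 with scrambled siRNA, against 6.06, 6.63, 5.98 and 6.31 with DMSO. In HepG2 it was not detected in either control group. CXCL10, an interferon-induced chemokine, was undetected on all 4 Huh7 DMSO arrays and at least 8.33-fold higher with scrambled siRNA, with 8.13, 8.65, 8.32 and 8.49 with scrambled siRNA, against 4.97, 4.94, 5.09 and 4.97 with DMSO. UBD (FAT10), a ubiquitin-like modifier induced by cytokines, had 11.95, 11.17, 11.42 and 11.51 with scrambled siRNA, against 8.64, 8.58, 8.73 and 8.67 with DMSO. KYNU, kynureninase of tryptophan breakdown, had 10.59, 10.81, 10.79 and 10.71 with scrambled siRNA, against 7.76, 8.00, 7.73 and 7.73 with DMSO. NEURL3, a ubiquitin ligase, differed by 2.78 ± 0.19, and CXCL5, a chemokine that draws neutrophils, by 2.57 ± 0.11. On the Huh7 arrays with HDAC2 siRNA, CXCL10 averaged 5.69, against 8.40 with scrambled siRNA and 4.99 with DMSO. CXCL5 averaged 7.66 there, against 11.66 with scrambled siRNA and 9.09 with DMSO. KYNU averaged 8.19 there, against 10.72 with scrambled siRNA and 7.80 with DMSO. GBP1 averaged 9.22 there, against 10.28 with scrambled siRNA and 6.25 with DMSO. The HDAC2 siRNA means of UBD (12.12) and NEURL3 (8.79) in Huh7 lay above their scrambled siRNA means of 11.51 and 8.35. In HepG2, CXCL10 and CXCL5 were detected on no control array, and KYNU differed by 0.10 ± 0.15, which was not called. UBD was lower there (-0.65 ± 0.24, adjusted p = 0.0282), with overlap between the groups, and the call is lost without scrambled siRNA replicate 3 or 4 or DMSO replicate 1 or 2 of that line (adjusted p = 0.05 to 0.125).

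Of 23 tested NF-kB targets and chemokines, 2 rose and 7 fell in HepG2 (median -0.0262, 0.00739 with each array scaled to one median), against 18 that rose and 0 that fell in Huh7 (median 0.953). The line difference passed the test for 18 of them in the direction lower in HepG2 and for 1 in the other. TNFAIP3 (A20), a feedback inhibitor of NF-kB, had 7.74, 7.96, 8.08 and 7.79 with scrambled siRNA, against 8.84, 8.79, 8.97 and 8.92 with DMSO in HepG2. In Huh7 TNFAIP3 had 8.80, 8.83, 8.93 and 8.99 with scrambled siRNA, against 7.28, 7.16, 7.07 and 7.00 with DMSO, so the scrambled siRNA arrays lay below the DMSO arrays in the one line and above them in the other. CCL20, a chemokine of mucosal epithelia and liver, showed the same turn, with 9.36, 9.05, 8.84 and 9.03 with scrambled siRNA, against 12.74, 12.56, 12.80 and 12.79 with DMSO in HepG2. Huh7 had 13.40, 13.25, 13.23 and 13.14 with scrambled siRNA, against 12.27, 12.45, 12.25 and 12.22 with DMSO for CCL20.

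Of 29 tested interferon-stimulated genes, 7 rose and 7 fell in HepG2, close to the shares of all genes, 23% and 22.1% (median 0.106, -0.011 among genes detected on all 16 control arrays), and 11 rose and 2 fell in Huh7 (median 0.267). MX1, an antiviral GTPase, had 8.07, 8.45, 8.34 and 8.32 with scrambled siRNA, against 6.63, 6.75, 6.87 and 6.70 with DMSO in HepG2. In Huh7 its signals were 5.25, 5.48, 5.81 and 5.93 with scrambled siRNA, against 4.88, 5.09, 4.75 and 5.11 with DMSO, near background. TRIM21, an Fc receptor and ubiquitin ligase, rose in both lines, by 1.41 ± 0.15 in HepG2 and 0.96 ± 0.15 in Huh7. IFITM2 and IFITM3, membrane proteins that block virus entry, fell in HepG2, by 1.91 and 1.91, and were not called in Huh7 (-0.19 ± 0.15 and 0.13 ± 0.19). Among 15 tested nucleic acid sensors and adaptors, 2 rose and 0 fell in HepG2, and 4 rose and 1 fell in Huh7. IFIH1 (MDA5), a cytosolic sensor of double-stranded RNA, had 6.54, 6.53, 6.43 and 6.67 with scrambled siRNA, against 6.68, 6.67, 6.23 and 6.80 with DMSO in HepG2, with overlap between the groups and no call. In Huh7 IFIH1 had 6.86, 6.88, 6.96 and 7.00 with scrambled siRNA, against 5.03, 4.74, 5.35 and 4.77 with DMSO, without overlap, and 1 of 4 DMSO arrays detected it.

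The RefSeq promoters of GBP1, CXCL10 and IFIH1, risen in Huh7, are shown because each holds the letters of the interferon-stimulated response element, searched on both strands as GAAA, then 2 bases of any kind, then GAAA again. Matches are in capitals, and each stretch is the 250 bases before the start on the minus strand of GRCh38.p14: chr1:89065209-89065458 for GBP1, chr4:76023498-76023747 for CXCL10 and chr2:162318685-162318934 for IFIH1.
GBP1: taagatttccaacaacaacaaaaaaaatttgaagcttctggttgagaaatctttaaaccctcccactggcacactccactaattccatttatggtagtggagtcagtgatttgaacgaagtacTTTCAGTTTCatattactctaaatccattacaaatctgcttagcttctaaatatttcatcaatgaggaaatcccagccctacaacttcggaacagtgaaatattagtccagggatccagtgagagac
CXCL10: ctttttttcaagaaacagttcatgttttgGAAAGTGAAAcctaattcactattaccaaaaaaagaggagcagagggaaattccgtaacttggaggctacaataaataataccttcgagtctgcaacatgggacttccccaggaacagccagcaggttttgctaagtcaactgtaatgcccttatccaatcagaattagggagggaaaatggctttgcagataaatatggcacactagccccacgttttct
IFIH1: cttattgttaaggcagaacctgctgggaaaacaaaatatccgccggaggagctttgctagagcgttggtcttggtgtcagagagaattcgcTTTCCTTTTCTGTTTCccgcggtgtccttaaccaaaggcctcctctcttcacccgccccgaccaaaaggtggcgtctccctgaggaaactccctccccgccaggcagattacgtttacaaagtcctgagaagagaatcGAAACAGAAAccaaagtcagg
There was 1 match in GBP1, 127 bases before the start, 1 in CXCL10, 221 bases before it, and 3 in IFIH1, the first 2 of which overlap. Of 27305 promoters, 3.07% held at least 1 match. A match in these letters is a description and shows no binding.

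A large fall in Huh7 was that of HAMP, which encodes hepcidin, the hormone by which the liver limits iron uptake and which BMP signalling through SMAD proteins induces. HAMP had 12.57, 12.03, 12.16 and 11.95 with scrambled siRNA, against 11.99, 12.02, 11.95 and 12.14 with DMSO in HepG2, where the groups overlapped and the difference was not called (0.15 ± 0.26). In Huh7 HAMP had 5.03, 4.85, 4.93 and 4.88 with scrambled siRNA, against 11.97, 11.66, 11.57 and 11.63 with DMSO. It was undetected on every Huh7 scrambled siRNA array, which puts it at least 82.5-fold lower. SMAD6, an inhibitor of BMP signalling that the pathway itself induces, had 8.02, 7.80, 8.18 and 7.97 with scrambled siRNA, against 7.56, 7.84, 8.07 and 7.98 with DMSO in HepG2, also without a call. Huh7 had 5.92, 6.50, 6.15 and 6.28 with scrambled siRNA, against 10.23, 10.35, 10.32 and 10.33 with DMSO for SMAD6, a wide gap between the groups. ID3, a target of BMP signals that blocks helix-loop-helix factors, rose by 0.58 in HepG2 and fell by 2.25 in Huh7. SMAD7, an inhibitor of TGF-beta signalling, rose by 2.49 in HepG2 and fell by 0.91 in Huh7.

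Over the list of TGF-beta and BMP targets, to which HAMP and SMAD6 belong, 15 genes were tested. In HepG2 6 rose and 2 fell (median 0.15), and in Huh7 1 rose and 8 fell (median -0.403). The line difference was called for 9 as higher in HepG2 and for 1 as lower. The promoters of HAMP and SMAD6 are shown because each holds letters known from BMP and SMAD response elements, in capitals: GGCGCC in HAMP, 105 bases before the start, and the palindrome GTCTAGAC in SMAD6, 12 bases before it. Both are the 250 bases before the start on the plus strand of GRCh38.p14, chr19:35282278-35282527 for HAMP and chr15:66701986-66702235 for SMAD6.
HAMP: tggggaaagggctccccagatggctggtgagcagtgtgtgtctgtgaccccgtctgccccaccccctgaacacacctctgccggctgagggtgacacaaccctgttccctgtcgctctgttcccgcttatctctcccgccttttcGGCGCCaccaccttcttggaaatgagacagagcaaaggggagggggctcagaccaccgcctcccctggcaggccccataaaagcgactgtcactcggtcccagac
SMAD6: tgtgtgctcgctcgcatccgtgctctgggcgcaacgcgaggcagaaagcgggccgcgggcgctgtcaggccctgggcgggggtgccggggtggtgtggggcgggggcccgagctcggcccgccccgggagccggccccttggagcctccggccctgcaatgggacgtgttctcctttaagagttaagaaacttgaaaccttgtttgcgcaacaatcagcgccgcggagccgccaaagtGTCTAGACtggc
Of 27305 promoters 16.1% held GGCGCC and 0.176% held GTCTAGAC, so the first is common in such windows and the second is rare.

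Other large falls in Huh7 were those of CD14, MYCN, ABCG1, CCDC183 and H19. CD14, a coreceptor for bacterial lipopolysaccharide, fell by 0.59 in HepG2. In Huh7 CD14 had 7.08, 7.67, 7.12 and 7.44 with scrambled siRNA, against 11.91, 11.90, 11.78 and 11.97 with DMSO. MYCN, a MYC family factor, had 5.98, 6.43, 5.85 and 5.82 with scrambled siRNA, against 9.91, 10.29, 10.03 and 9.80 with DMSO in Huh7. ABCG1, a sterol exporter, was undetected with scrambled siRNA and at least 15.4-fold lower in Huh7 by its brightest probe. Its 4 detected probes gave differences from -4.06 to 0.51, with 1 probe called higher and 1 not called, so its probes disagree. CCDC183, a coiled-coil protein, was undetected with scrambled siRNA and at least 9.46-fold lower. H19, an imprinted RNA of fetal liver, had 5.12, 5.32, 5.38 and 5.48 with scrambled siRNA, against 9.12, 8.70, 8.89 and 9.02 with DMSO in Huh7, and was at background on all HepG2 control arrays.

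**Figure D4:**
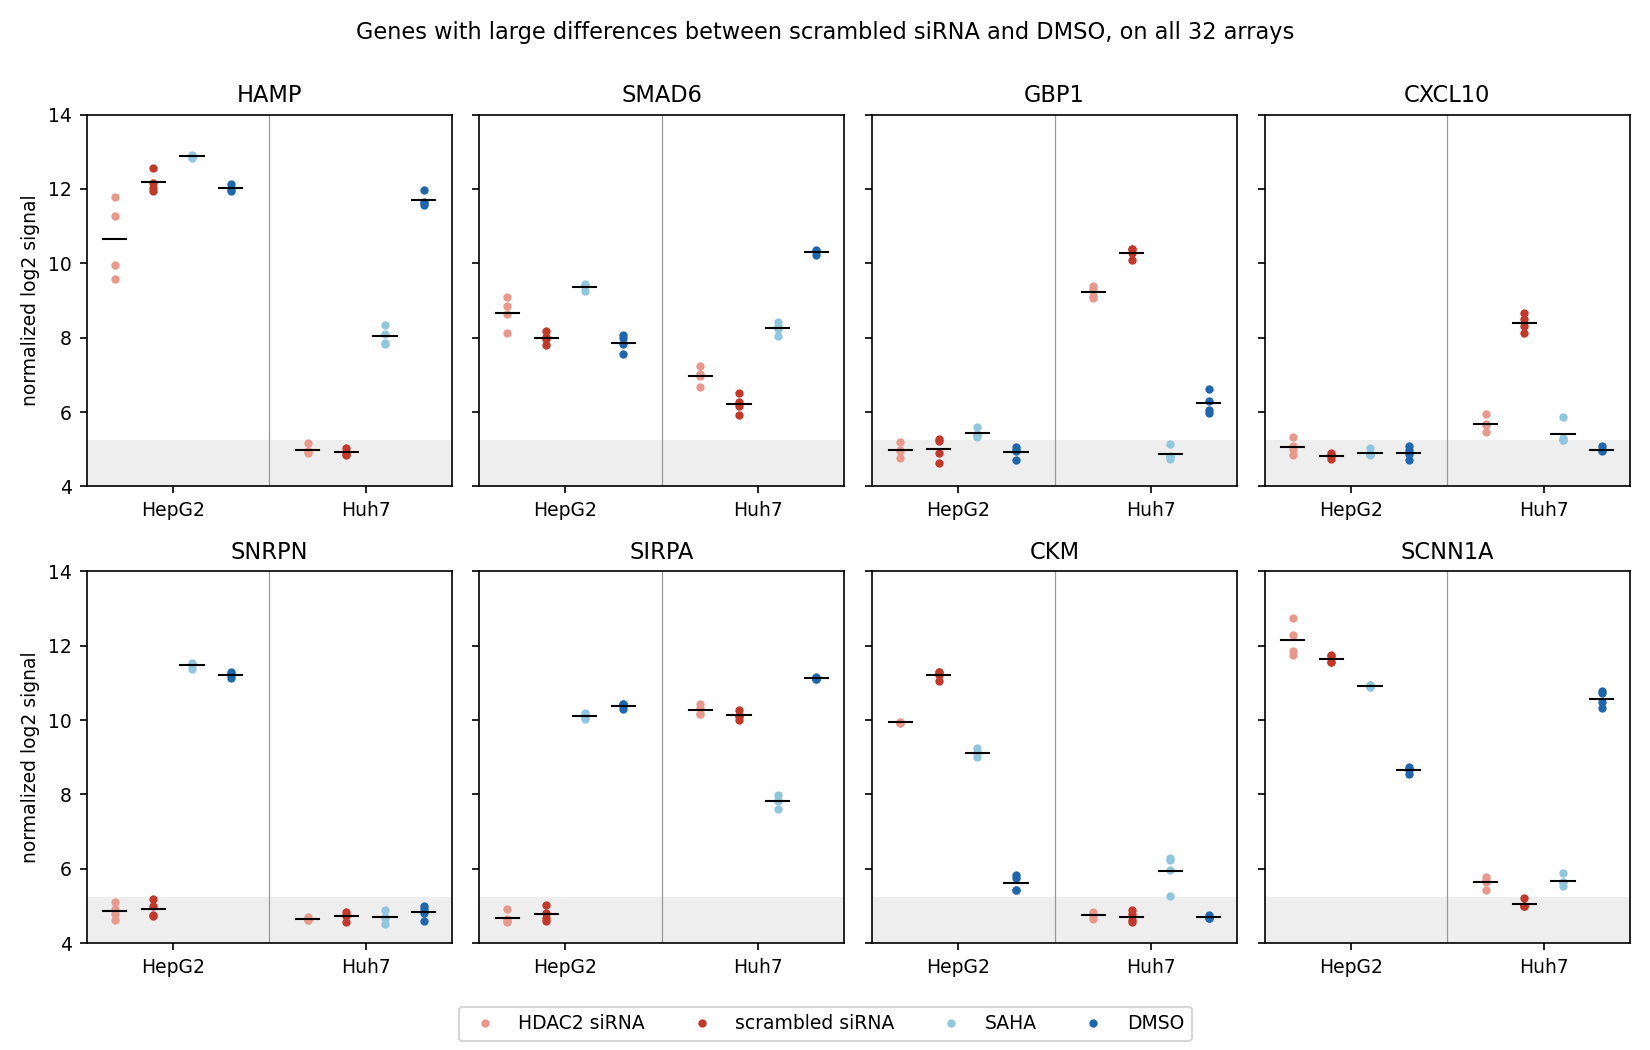
Normalized log2 signal of 8 genes on all 32 arrays, with HepG2 on the left and Huh7 on the right of each panel. Within a line the columns are HDAC2 siRNA, scrambled siRNA, SAHA and DMSO, points are arrays, black bars are means of 4, and the grey band marks signals below 5.22. SNRPN and SIRPA lie in the band on all 8 siRNA arrays of HepG2 and above 10 on its 8 SAHA and DMSO arrays, and HAMP lies in the band on all 8 siRNA arrays of Huh7.

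SNRPN and SIRPA were among the large falls in HepG2. SNRPN, an imprinted gene for a splicing protein, had 4.72, 5.01, 5.19 and 4.75 with scrambled siRNA, against 11.13, 11.23, 11.28 and 11.21 with DMSO in HepG2. It was undetected on all 4 scrambled siRNA arrays, which puts it at least 54.4-fold lower, and undetected on every Huh7 control array. SIRPA, the receptor for CD47, had 4.59, 4.68, 5.02 and 4.81 with scrambled siRNA, against 10.39, 10.43, 10.43 and 10.30 with DMSO in HepG2, at least 30.7-fold lower by its brightest probe, while its other detected probe differed by -2.57. In Huh7 SIRPA was detected in both groups, at 10.13 ± 0.11 with scrambled siRNA and 11.12 ± 0.04 with DMSO (SD, n = 4 each). TSPAN7, a tetraspanin, and H2BC12, a histone H2B, were also undetected with scrambled siRNA in HepG2, at least 13.0-fold and at least 15.3-fold lower by their brightest probe. The other detected probe of H2BC12 differed by -1.36. In Huh7 H2BC12 was called lower too (-1.07 ± 0.12). On the HepG2 arrays with HDAC2 siRNA the means were 4.85 for SNRPN, 4.68 for SIRPA and 4.75 for TSPAN7, and on those with SAHA they were 11.48, 10.11 and 10.26. H2BC12 averaged 5.75 with HDAC2 siRNA in HepG2, where all 4 arrays detected it, and 12.50 with SAHA. In all, 109 called genes were detected on the 4 DMSO arrays and none of the 4 scrambled siRNA arrays of HepG2, and 35 of them kept that pattern on the SAHA and HDAC2 siRNA arrays.

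FGB, the fibrinogen beta chain, had 6.62, 4.92, 5.13 and 5.83 with scrambled siRNA, against 11.11, 10.98, 10.37 and 10.62 with DMSO in HepG2, detected on 2 of the 4 scrambled siRNA arrays. RELN, reelin, a secreted matrix protein, had 7.69, 7.79, 7.82 and 7.84 with scrambled siRNA, against 12.13, 12.29, 12.27 and 12.33 with DMSO in HepG2, and rose in Huh7 by 1.14 ± 0.11, where 1 of its 2 detected probes was not called. DEPP1, a gene induced by FOXO factors, differed by -4.43 ± 0.23 in HepG2 and -0.93 ± 0.23 in Huh7. TGFBR3, betaglycan, a coreceptor of TGF-beta, stood at 7.89, 8.14, 7.98 and 8.30 with scrambled siRNA, against 12.26, 12.09, 12.20 and 12.40 with DMSO in HepG2. Its Huh7 difference was 0.17 ± 0.11, which was not called. TOX3, an HMG-box protein, was undetected with scrambled siRNA and at least 9.52-fold lower in HepG2.

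A large rise in HepG2 was that of CKM, the creatine kinase of muscle. It had 11.29, 11.21, 11.30 and 11.04 with scrambled siRNA, against 5.82, 5.44, 5.76 and 5.42 with DMSO in HepG2, and was undetected on all Huh7 control arrays. SAHA arrays of HepG2 averaged 9.12 for CKM and HDAC2 siRNA arrays 9.94, so CKM was low on the DMSO arrays alone among the 4 groups of that line. EFHD1, a mitochondrial calcium-binding protein, had 10.09, 10.11, 10.30 and 10.11 with scrambled siRNA, against 5.54, 5.87, 5.22 and 5.41 with DMSO in HepG2. CD36, a fatty acid receptor, AQP8, a water channel, and TMEM200A, a membrane protein, were undetected with DMSO in HepG2 and at least 11.7-fold, at least 11.1-fold and at least 14.3-fold higher with scrambled siRNA. The bound of CD36 is that of its brightest probe, and its other detected probe differed by 2.36. ENPP2 (autotaxin), which makes lysophosphatidic acid, had 9.99, 10.03, 10.00 and 10.23 with scrambled siRNA, against 5.81, 5.86, 6.44 and 5.94 with DMSO in HepG2. UCP2, a carrier of the inner mitochondrial membrane, rose by 3.92 ± 0.12 and GALR2, a galanin receptor, by 3.87 ± 0.23 in HepG2. For CKM, CD36, AQP8, TMEM200A, ENPP2, UCP2 and GALR2 the 8 siRNA subset arrays of HepG2 lay above its 8 SAHA subset arrays. EFHD1 did not separate them, with HepG2 means of 9.01 with SAHA, 8.78 with HDAC2 siRNA and 5.51 with DMSO.

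Some genes went opposite ways in the lines. SCNN1A, a subunit of the epithelial sodium channel, had 11.55, 11.55, 11.73 and 11.76 with scrambled siRNA, against 8.69, 8.73, 8.66 and 8.56 with DMSO in HepG2. In Huh7 it had 5.22, 5.01, 4.99 and 4.99 with scrambled siRNA, against 10.79, 10.73, 10.31 and 10.48 with DMSO, undetected with scrambled siRNA and at least 37.6-fold lower. The difference between the lines passed the test, but its size has only a bound, since SCNN1A was not well above background in that group. SCNN1A was also low on Huh7 SAHA arrays, with a mean of 5.68, so the Huh7 DMSO arrays stood apart from the other 3 groups of that line. DACT2, an inhibitor of WNT and TGF-beta signals, was undetected with DMSO in HepG2 and at least 2.57-fold higher there with scrambled siRNA, and in Huh7 it differed by -3.54 ± 0.17. On the Huh7 arrays with HDAC2 siRNA DACT2 averaged 9.07, against 5.86 with scrambled siRNA and 9.40 with DMSO. RBPMS2, an RNA-binding protein, rose by 3.65 in HepG2 and fell by 1.35 in Huh7 (line difference 5.00). RIN2, an activator of RAB5 in endocytosis, rose by 3.56 in HepG2 and fell by 1.31 in Huh7 (line difference 4.86).

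The counts of sterol genes differed in direction between the lines. Of 30 tested genes of cholesterol synthesis and uptake, 17 rose and 3 fell in HepG2 (median 0.421), and 2 rose and 17 fell in Huh7 (median -0.351), and the line difference was called for 22 as higher in HepG2 and for 1 as lower. In opposite directions 9 genes were called, while 3 fell and 1 rose in both lines. DHCR7, the last enzyme of cholesterol synthesis, had 12.00, 11.95, 12.02 and 11.85 with scrambled siRNA, against 10.91, 10.96, 11.09 and 10.91 with DMSO in HepG2. For Huh7 the DHCR7 signals were 12.17, 11.91, 12.05 and 12.08 with scrambled siRNA, against 12.65, 12.36, 12.45 and 12.46 with DMSO. TM7SF2, a sterol reductase, differed by 1.07 ± 0.17 in HepG2 and -1.78 ± 0.17 in Huh7. INSIG2, which holds SREBP back in the endoplasmic reticulum, fell in both lines, with -1.65 ± 0.13 in HepG2 and -0.75 ± 0.13 in Huh7. Of 28 fatty acid synthesis and lipid droplet genes 12 rose and 10 fell in HepG2 (median 0.0938, -0.0976 with each array scaled to one median), and 3 rose and 16 fell in Huh7 (median -0.392). FADS1, a fatty acid desaturase, fell in both lines, by 0.76 in HepG2 and 2.83 in Huh7. GPAM, which starts glycerolipid synthesis, differed by 0.20 ± 0.15 in HepG2, with no call, and fell by 2.87 in Huh7.

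Genes of the list of MYC and ribosome biogenesis differed between the lines in the other sense. Of 28 tested, 3 rose and 17 fell in HepG2 (median -0.561), and 18 rose and 1 fell in Huh7 (median 0.41). The lines had opposite calls for 9 of them, while 3 rose and 1 fell in both. With each array scaled to one median 11 rose and 4 fell in Huh7. MYC itself had 10.80, 10.70, 10.25 and 10.60 with scrambled siRNA, against 10.45, 10.70, 10.59 and 10.84 with DMSO in HepG2, overlapping and not called. Its Huh7 signals were 10.73, 10.18, 10.07 and 10.22 with scrambled siRNA, against 8.13, 8.23, 8.31 and 8.40 with DMSO, without overlap. NOP58 and NOP56, parts of the box C/D particles that modify ribosomal RNA, fell in HepG2 by 1.39 and 0.90 and rose in Huh7 by 1.71 and 0.71. Among 46 ribosomal protein genes 5 rose and 19 fell in HepG2 (median -0.164), and 15 rose and 14 fell in Huh7 (median 0.000806, -0.316 with each array scaled to one median, where 2 rose and 32 fell in HepG2 and 5 rose and 24 fell in Huh7). RPL13 differed by -1.41 ± 0.10 in HepG2, where 1 of its 2 detected probes was not called, and by 0.50 ± 0.10 in Huh7.

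Lists of growth and stress genes followed no single pattern, and some counts lay near the shares of all genes (23% higher and 22.1% lower in HepG2, 22.9% and 21.1% in Huh7). Of 42 DNA replication genes 10 rose and 12 fell in HepG2, and 3 rose and 18 fell in Huh7, among them MCM3, a subunit of the replicative helicase (-0.95 ± 0.09). Of 38 mitosis genes 7 rose and 16 fell in HepG2, among them UBE2C, a ubiquitin-conjugating enzyme of the anaphase-promoting complex (-1.96 ± 0.08), and 11 rose and 11 fell in Huh7, where PRC1, a spindle midzone protein, fell by 1.18. One of the 3 detected probes of UBE2C was not called. With each array scaled to one median 5 replication genes rose and 15 fell in HepG2, and 2 rose and 21 fell in Huh7. Under that scaling 1 mitosis gene rose and 19 fell in HepG2, and 5 rose and 12 fell in Huh7 (median -0.0714, against 0.0774 with quantile normalization). CDKN1A (p21), an inhibitor of cyclin-dependent kinases, rose in both lines, by 0.80 ± 0.10 in HepG2 and 1.28 ± 0.10 in Huh7, where 1 of its 2 detected probes was not called. Of 43 genes of the integrated stress and unfolded protein response 4 rose and 23 fell in HepG2, and 14 rose and 13 fell in Huh7. HSPA5 (BiP), the chaperone of the endoplasmic reticulum, fell by 0.41 in HepG2 and 1.14 in Huh7, and STC2, a secreted glycoprotein induced by that stress, fell by 1.31 in HepG2 and 1.85 in Huh7, where 1 of 4 scrambled siRNA arrays detected it. GDF15, a stress-induced cytokine, fell by 0.52 in HepG2 and rose by 1.60 in Huh7. Of 44 glycolysis and hypoxia targets 8 rose and 20 fell in HepG2, and 7 rose and 14 fell in Huh7. SLC2A1 (GLUT1) had 10.20, 10.22, 10.30 and 10.26 with scrambled siRNA, against 12.45, 12.57, 12.92 and 12.84 with DMSO in HepG2, and rose in Huh7 by 0.84 ± 0.11. SLC16A3, the lactate exporter MCT4, differed by 0.10 ± 0.10 in HepG2, with no call, and fell by 2.41 in Huh7.

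HDAC2, the gene the siRNA of the series targets, itself differed between the controls. It had 10.91, 11.15, 10.82 and 11.00 with scrambled siRNA, against 11.68, 11.42, 11.31 and 11.41 with DMSO in HepG2. In Huh7 HDAC2 had 12.12, 12.08, 12.05 and 12.03 with scrambled siRNA, against 11.42, 11.69, 11.44 and 11.47 with DMSO. It was lower with scrambled siRNA in HepG2 (-0.49 ± 0.10) and higher in Huh7 (0.57 ± 0.10), and neither pair of groups overlapped. With HDAC2 siRNA its mean was 7.92 in HepG2 and 8.73 in Huh7, below every control array, as the labels of the HDAC2 siRNA arrays imply. Of 16 tested histone deacetylase genes 2 rose and 5 fell in HepG2 (median -0.175, 0.00551 among genes detected on all 16 control arrays), and 3 rose and 2 fell in Huh7 (median 0.0753, -0.103 with each array scaled to one median), against the shares of all genes of 23% higher and 22.1% lower in HepG2 and 22.9% and 21.1% in Huh7. HDAC1 and HDAC4 fell in HepG2, by 0.79 and 0.89, and were not called in Huh7 (0.10 ± 0.08 and 0.05 ± 0.14). HDAC8 was undetected with scrambled siRNA in HepG2 (at least 1.80-fold lower) and fell by 0.60 in Huh7. The Huh7 call of HDAC8 is lost without scrambled siRNA replicate 3 (limma, adjusted p = 0.0536) or without DMSO replicate 2 (limma, adjusted p = 0.0524). HDAC3 was called in neither line, with 0.15 ± 0.10 in HepG2 and -0.15 ± 0.10 in Huh7.

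For the RNA interference machinery the counts were near the shares of all genes. Of 14 tested genes 3 rose and 3 fell in HepG2 (23% and 22.1% of all genes did so there; median 0.0807, -0.0294 with each array scaled to one median), and 4 rose and 3 fell in Huh7 (median -0.112). TNRC6A, a partner of Argonaute in silencing, differed by 0.08 ± 0.16 in HepG2, with no call, and fell by 1.33 in Huh7 by its brightest probe. The other 2 detected probes of TNRC6A were not called there, and the mean of the 3 was -0.50. XPO5, the exporter of microRNA precursors, fell in HepG2 by 0.52 and rose in Huh7 by 0.62. TSNAX, a subunit of a nuclease that clears the passenger strand of siRNAs, rose in both lines, by 0.82 ± 0.20 in HepG2 and 0.98 ± 0.20 in Huh7. Of 17 reference genes commonly taken as stable 2 rose and 7 fell in HepG2, and 3 rose and 4 fell in Huh7. Scaling to one median left 1 that rose and 8 that fell in HepG2, and 1 that rose and 9 that fell in Huh7. B2M fell by 0.66 in HepG2 and rose by 0.82 in Huh7, and TFRC, the transferrin receptor, fell by 1.01 in HepG2 and differed by -0.24 ± 0.11 in Huh7, with no call.

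Markers of other cell types were summed in the same way. Of 15 leukocyte markers 9 were tested, with a summed log2 signal of 10.4 to 10.5 in HepG2 with scrambled siRNA and 11.3 to 11.5 with DMSO, and 9.7 to 10.1 in Huh7 with scrambled siRNA and 12.0 to 12.2 with DMSO. Of the 9, 3 rose and 4 fell in HepG2, and 2 rose and 2 fell in Huh7. Among the markers that fell, LYZ, lysozyme, fell by 2.85 in HepG2 and CD14 fell in both lines as given above, and CSF1R was undetected in all 4 groups. Of 13 fibroblast and endothelial markers 9 were tested, with a summed log2 signal of 12.8 to 13.0 in HepG2 with scrambled siRNA and 11.6 to 11.7 with DMSO, and 9.19 to 9.59 in Huh7 with scrambled siRNA and 9.30 to 9.50 with DMSO, and CDH5 and VWF were undetected throughout. Of these 9, 1 rose and 2 fell in HepG2, and 1 rose and 1 fell in Huh7. The part of other cells in the differences was not tested.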

How the data were processed

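Messenger RNA was read on 32 Illumina bead arrays, of which 16 are compared here, 4 in each of 4 groups. The authors deposited a table of probe intensity on a linear scale, neither background-subtracted nor normalized, and per the file headers a detection p-value for each probe and array. A second table that the authors deposited, of normalized intensity values reaching below 0, served as an alternative. Per the submitters' processing notes GenomeStudio 2011.1 was used, without a statement of the step.

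Using detection p-values to set the background, signals were corrected array by array (limma 3.58.1 in R 4.3.3, offset 16), the 32 arrays were quantile-normalized, and signals were put on the log2 scale. Probes with a detection p under 0.05 on at least 4 arrays were kept (16121), and the probe with the highest mean stood for its gene (12973 genes). One limma model with 8 group means was fitted, with 24 residual degrees of freedom, so that all groups share one estimate of spread. Between groups, two-sided moderated tests were adjusted by Benjamini-Hochberg over all genes. "At least" folds were given only where a gene was detected on all 4 arrays of the one group and none of the other, with dim signals raised to the lowest detected signal of their array (5.22 to 5.55 on the log2 scale). The number of arrays limits the precision.

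Of 24526 probes, 20406 bore a current symbol, 3265 an older symbol of 1 gene, which was updated, and 816 an unmatched symbol; 39 bore a spreadsheet date in place of a symbol and are not named. Promoter sequences are RefSeq's, on GRCh38.p14, and 88 of the 114 genes named had an entry. Named were, per line, the largest rises and falls among called genes with current symbols whose groups did not overlap, the genes alike in both lines ranked by the smaller difference, the largest line differences, for each list at most 4 genes, those of smallest adjusted p, and the HDAC family, fewer being printed, in rank order. The comparison, the 39 gene lists (1027 of 1159 genes tested) and the motifs were chosen with earlier results of these data known. On simulated data of 12973 genes for the Huh7 comparison the fit recovered 43% of 100 genes changed by 0.5 and 94% of 100 changed by 1 on the log2 scale, with 10 false calls. Far fewer genes were changed there than the 44% called in the Huh7 data. The cutoff of the adjusted p depends on that share, so this recovery and false call number do not carry over to the data. Alternatives changed background, normalization, filter, probe choice, threshold and arrays left out.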

Additional observations from a re-analysis of the deposited data

Results flagged for a closer look

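The effect of the control condition differed between the lines for 16 named genes, each by the test of the difference HepG2 minus Huh7 itself (limma, adjusted over 12973 genes). The difference was positive for SCNN1A (8.51), HAMP (6.93), EFHD1 (5.91), ENPP2 (5.86), CKM (5.58), DACT2 (5.36), RBPMS2 (5.00) and RIN2 (4.86). It was negative for SNRPN (-6.20), RELN (-5.62), FGB (-4.87), SIRPA (-4.62), CCL20 (-4.61), TSPAN7 (-4.53), TOX3 (-4.35) and TGFBR3 (-4.33). SCNN1A, HAMP, EFHD1, CKM, DACT2, SNRPN, SIRPA, TSPAN7 and TOX3 were undetected on every array of at least 1 control group, so their values are those of the fit and not measured sizes, and give no rank.

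In 22 of 387 groups of 4 arrays, 1 array stood far from the other 3, where chance alone flags about 1 group in 20. High single values of log2 signal with scrambled siRNA in HepG2 were 10.30 for EFHD1 (others up to 10.11), 10.25 for PGC (10.11), 11.18 for RBPMS2 (11.05) and 10.38 for IFITM3 (10.10). The low one there was 7.18 for LYZ (others from 7.69). High values with DMSO in HepG2 were 10.90 for AKR1B10 (others up to 10.64), 11.54 for BEX1 (11.39) and 10.78 for FADS1 (10.53). Low values with scrambled siRNA in Huh7 were 9.14 for HMOX1 (others from 9.57), 6.82 for SALL2 (7.49), 9.37 for ALDOC (9.79), 7.23 for NR0B2 (7.48), 7.60 for INSIG2 (7.90) and 5.94 for LYZ (6.16). High values with DMSO in Huh7 were 8.00 for KYNU (others up to 7.76), 10.57 for ANXA1 (10.35), 8.87 for TOX3 (8.05) and 8.78 for TM7SF2 (8.44). Low values with DMSO in Huh7 were 9.09 for ABCG1 (others from 9.34), 7.02 for STC2 (7.10) and 10.16 for HSPA5 (10.26). Replicate 4 of Huh7 with DMSO had 52.91% of probes detected, against 51.67% to 51.85% on the other 3 arrays of its group.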

How the results depend on the processing

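Called differences of named genes numbered 205, and none changed sign under the alternatives that gave each gene 1 value (118 of them could be had among genes detected on all 16 arrays). With probes tested singly, 1 ABCG1 probe was called the other way in Huh7 (0.51), and uncalled probes of TOM1L2 (-0.04) and TNRC6A (0.05) differed in sign from the brightest. The mean of a gene's probes moved 14 differences by over 1.5 times, among them ABCG1 (-1.36), TOM1L2 (0.64), LAMP2 (-0.74) and TNRC6A (-0.50) in Huh7 and TOM1L2 (1.06), MYL9 (1.69) and H2BC12 (-2.88) in HepG2, with no call lost. One call was lost without background correction and one at an offset of 50 (CCDC183 in HepG2), 1 with each array scaled to one median (OSGIN1 in HepG2) and 1 with the authors' normalized values (HDAC8 in Huh7), and 10 over the 16 fits that leave out 1 array each (among UBD, OSGIN1 and CCDC183 in HepG2 and HDAC8 in Huh7). Counts of called genes stayed within 1.5 times of 5844 in HepG2, 5704 in Huh7, 1687 alike and 5960 line differences, with 2 exceptions: the genes higher in both lines fell to 447 with each array scaled to one median, where 40.7% of called genes were higher in HepG2 and 39.0% in Huh7 (51.0% and 52.1% with quantile normalization), and adding a 2-fold limit left 1163 in HepG2, 1077 in Huh7, 115 alike and 2419 line differences. The genes alike at 2-fold, 45 higher and 70 lower, were 11 and 29 without background correction, 22 and 48 at an offset of 50, 66 and 106 with the authors' normalized values, and 29 and 48 among genes detected on all 16 arrays. Leaving out 1 array gave 5400 to 5870 genes in HepG2, 5215 to 5739 in Huh7, 1539 to 1633 alike (787 to 869 higher and 735 to 778 lower) and 5649 to 5910 line differences. At a detection p under 0.01 the difference in probes detected in Huh7 was -2.85 percentage points (exact permutation test, two-sided p = 0.0286), against -0.015 at 0.05. With the replicate number as a block, 5988 genes were called in HepG2, 5838 in Huh7, 1745 alike and 6148 line differences. Deviations of same-numbered scrambled siRNA and DMSO arrays from their group means correlated at -0.124 to 0.153. By these deviations, 3 of 8 numbers (2 in Huh7, 1 and 3 in HepG2) matched best with themselves. Whether the numbers pair cultures cannot be told from these values. No slide or scan is given in the files, so no such block was run. Probes near background have only bounds, and the cause of each change above was not tested.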

Other observations

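Lists not described above had the following counts of called genes. Early response genes, which growth factors induce within a short time, had 7 higher and 5 lower of 30 in HepG2, and 12 higher and 5 lower in Huh7. Targets of SRF and YAP, factors of the cytoskeleton and cell contact, had 8 higher and 5 lower of 27 in HepG2, and 10 higher and 2 lower in Huh7. Cell cycle inhibitors and p53 targets had 14 higher and 8 lower of 33 in HepG2, and 7 higher and 8 lower in Huh7. Apoptosis regulators had 6 higher and 8 lower of 22 in HepG2, and 7 higher and 5 lower in Huh7. For histone genes the counts were 6 higher and 4 lower of 27 in HepG2, and 0 higher and 6 lower in Huh7. Oncofetal liver genes had 2 higher and 9 lower of 17 in HepG2, and 4 higher and 8 lower in Huh7, with 5 lower in both lines.

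Among metabolic lists, xenobiotic enzymes and transporters had 9 higher and 11 lower of 40 in HepG2, and 14 higher and 5 lower in Huh7. PPAR targets and fatty acid oxidation had 8 higher and 9 lower of 27 in HepG2, and 5 higher and 10 lower in Huh7. Gluconeogenesis and FOXO targets had 4 higher and 9 lower of 20 in HepG2, and 0 higher and 11 lower in Huh7. Metal and iron genes had 9 higher and 6 lower of 22 in HepG2, and 8 higher and 5 lower in Huh7. Oxidative phosphorylation genes had 14 higher and 5 lower of 39 in HepG2, and 4 higher and 10 lower in Huh7, but 5 higher and 7 lower in HepG2 with each array scaled to one median. Heat shock genes had 6 higher and 7 lower of 21 in HepG2, and 10 higher and 4 lower in Huh7. Scaling to one median gave heat shock 4 higher and 8 lower in HepG2 (median -0.119, against 0.0502) and 4 higher and 4 lower in Huh7. It gave metal and iron genes 5 higher and 7 lower in HepG2, oxidative phosphorylation 2 higher and 19 lower in Huh7, and histone genes 0 higher and 11 lower in Huh7.

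Of adhesion and lineage lists, extracellular matrix and adhesion genes had 6 higher and 14 lower of 34 in HepG2, and 5 higher and 15 lower in Huh7. Epithelial junction and mesenchymal genes had 5 higher and 5 lower of 21 in HepG2, and 1 higher and 7 lower in Huh7. WNT targets had 4 higher and 4 lower of 19 in HepG2, and 0 higher and 7 lower in Huh7. Neuronal genes had 2 higher and 4 lower of 17 in HepG2, and 1 higher and 4 lower in Huh7. Over all genes the shares were 23% higher and 22.1% lower in HepG2, and 22.9% higher and 21.1% lower in Huh7.

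Some called genes were detected on all 4 arrays of a control group and on none of the other. Of the 12973 genes tested, HepG2 had 100 such genes with scrambled siRNA alone and 109 with DMSO alone, and Huh7 had 58 and 103. The same pattern on the other arrays of each subset, HDAC2 siRNA beside scrambled siRNA and SAHA beside DMSO, was kept by 10 of the 100 and 35 of the 109 in HepG2, and by 12 of the 58 and 23 of the 103 in Huh7. SNRPN, SIRPA and TSPAN7 were among the 35 in HepG2 and HAMP among the 23 in Huh7.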
